A study of Mus musculus with 13 samples.

Results

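The 8 genes described here encode transcription factors that lay down or keep the cell lineages of the lung. Nkx2-1, Foxa2, Gata6 and Etv5 act in its epithelium, and Foxf1, Tbx2, Tbx4 and Tbx5 act in its mesenchyme and vessels. They were chosen by symbol, and each of the 8 matched 1 of the 46679 gene IDs in the deposited tables. The study asked how a mammary tumor at a distant site affects gene expression in the mouse lung, and it sequenced total RNA depleted of ribosomal RNA from tumors and lungs of female FVB mice aged 10 weeks. Mammary tumors came from 3 mice (numbers 6877, 6880 and 6881), 2 weeks after 250000 Met1 cells, a mouse mammary carcinoma line, had been placed in the inguinal mammary fat pads. Tumor-bearing lungs came from those 3 mice and from mouse 6879, which had been injected in the same way. Normal lungs came from 4 mice without tumors (6886, 6887, 6888 and 6893). The labels name no genotype beyond the strain, all tumors grew from 1 cell line, and a tumor also holds cells of the mouse that carried it.

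Nkx2-1 is a homeodomain factor that marks the lung part of the foregut early and later drives genes of surfactant and secretory proteins, and it also acts in the thyroid. Foxa2, a forkhead factor that opens chromatin in endoderm, and Gata6, a zinc finger factor, work with it in the airway and alveolar epithelium, while Etv5, an ETS family factor, is switched on by fibroblast growth factor (FGF) signaling. Foxf1, a forkhead factor downstream of Hedgehog signaling, and the T-box factors Tbx2, Tbx4 and Tbx5 pattern the mesenchyme that sends growth factors back to the epithelium. Gata6 and Tbx5 are also known as heart factors.

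Each library held between 8321037 and 13982903 estimated counts, and the labels record 2 preparation batches. All 3 tumors were in batch 2, 3 tumor-bearing lungs were in batch 1 and 1 (mouse 6877) was in batch 2, and normal mice 6886 and 6888 were prepared in both batches. The mouse was the replicate, and the batch 1 library stood for mice 6886 and 6888 in the tests. Markers of cell types were summed by tissue. The 7 alveolar type 2 markers summed to between 61.4 and 106 CPM (counts scaled to a library of fixed size) in tumors, 5916 and 13860 CPM in tumor-bearing lungs, and 9135 and 14190 CPM in normal lungs, while 4 general epithelial markers summed to 812 to 1149 CPM in tumors, 238 to 376 CPM in tumor-bearing lungs and 274 to 444 CPM in normal lungs. Of these 4, Cdh1 went the other way, with means of 138 CPM in tumors and 206 CPM in normal lung. The 7 mammary epithelium markers summed to 184 to 206 CPM in tumors, 37.0 to 63.9 CPM in tumor-bearing lungs and 22.25 to 41.1 CPM in normal lungs. Most of the tumor sum was Gata3 and Elf5, with means of 129 and 46.1 CPM. Heart muscle markers, 6 genes, stood apart in 1 tested library: they summed to 886 CPM in the tumor-bearing lung of mouse 6879, against 25.9 to 39.2 CPM in the other tumor-bearing lungs and 20.8 to 34.3 CPM in normal lungs. The batch 2 library of normal mouse 6886, which entered no main test, held 571 CPM of them. Thyroid markers, 5 genes, summed to at most 5.54 CPM in tumors, 11.1 CPM in tumor-bearing lungs and 9.57 CPM in normal lungs.

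Of the 8 factors, 7 were close to absent from the mammary tumors and well measured in every lung, while the Etv5 values of the 3 tissues overlapped. Against normal lung, 7 of 8 were lower in tumors and 1 did not pass the test, where 24.7% of the 18297 genes tested were lower and 49.3% were called in either direction (edgeR quasi-likelihood test, Benjamini-Hochberg adjusted p below 0.05). Against tumor-bearing lung the count was again 7 of 8 lower, where 23.7% of genes were lower and 46.3% were called. Their median log2 fold change was -7.94 against normal lung and -7.59 against tumor-bearing lung, beside -0.04 and -0.10 for all genes tested; with Foxa2 set at its counting bound, the first median was -7.81. Both comparisons share the 3 tumors, and in bulk tissue fewer cells of a type and less RNA per cell cannot be told apart.

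**Figure D1:**
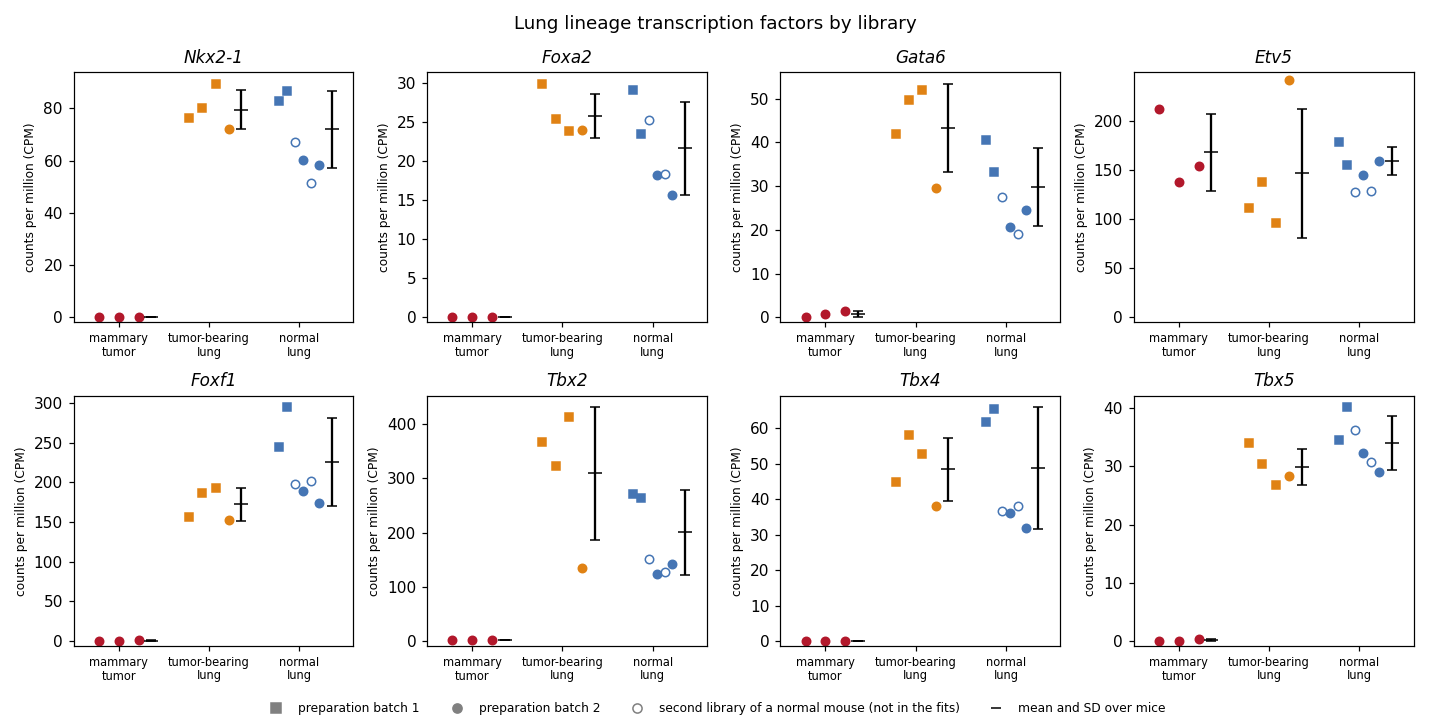
Level of each factor in CPM by tissue, 1 point a library, with squares for preparation batch 1, circles for batch 2, open circles for the second library of a normal mouse, and the mean with its SD over mice in black. The 3 tumors sit at or near 0 in 7 panels, whereas for Etv5 they lie between 138 and 212 CPM.

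Among the epithelial factors, Nkx2-1 (chr12:56531958-56536908, minus strand, GRCm38) had 0.12, 0.23 and 0.08 CPM in the tumors of mice 6877, 6880 and 6881. In the tumor-bearing lungs of mice 6877, 6879, 6880 and 6881 it had 72.2, 76.2, 80.0 and 89.5 CPM, and in normal lungs 6886, 6887, 6888 and 6893 it had 82.8, 60.4, 86.6 and 58.5 CPM. No tumor came near any lung, and the lung groups overlapped. The 3 tumors held 5 Nkx2-1 counts in all, and the fitted log2 fold change was -8.64 (SE 0.29, adjusted p = 6.16e-09, edgeR) against normal lung and -8.71 (SE 0.29, adjusted p = 9.74e-09) against tumor-bearing lung.

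Foxa2 (chr2:148042877-148046969, minus strand) had 0 counts in each of the 3 tumors. It had 23.96, 30.0, 25.5 and 23.9 CPM in tumor-bearing lungs 6877, 6879, 6880 and 6881, and 29.1, 18.3, 23.5 and 15.7 CPM in normal lungs 6886, 6887, 6888 and 6893. A count of 0 is set here at 3 counts over the group, which places Foxa2 at least 248.5-fold lower in tumors than in normal lung and at least 288-fold lower than in tumor-bearing lung. The edgeR adjusted p was 1.56e-07 and 2.06e-07 in the 2 comparisons, and such bounds, like the counting intervals given here, cover counting error only.

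Gata6 (chr18:11052064-11085635, plus strand) was low but above 0 in the tumors, with 0.12, 0.70 and 1.40 CPM in mice 6877, 6880 and 6881, or 28 counts in all. Tumor-bearing lungs had 29.6, 42.0, 49.7 and 52.0 CPM and normal lungs 40.6, 20.6, 33.2 and 24.5 CPM, in the same order of mice as for Foxa2. Its log2 fold change was -4.81 (SE 0.41, adjusted p = 2.15e-06) in tumors against normal lung and -5.20 (SE 0.43, adjusted p = 2.38e-06) against tumor-bearing lung, the smallest fall in both comparisons among the 7 called factors.

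Etv5 (chr16:22381309-22439719, minus strand) had 212, 138 and 154 CPM in the tumors of mice 6877, 6880 and 6881. Tumor-bearing lungs 6877, 6879, 6880 and 6881 had 242, 111, 138 and 96.3 CPM, and normal lungs 6886, 6887, 6888 and 6893 had 179, 145, 155 and 159 CPM. The groups overlapped in both comparisons, and mouse 6877 held the highest value among tumors and the highest among tumor-bearing lungs. The log2 fold change was -0.17 (SE 0.30, 95% interval -0.82 to 0.48, adjusted p = 0.667) in tumors against normal lung and -0.08 (SE 0.30, 95% interval -0.74 to 0.59, adjusted p = 0.857) against tumor-bearing lung. Neither sign was stable: within batch 2 the first was 0.28 and the second -0.49, and without the tumor-bearing lung of mouse 6877 they were 0.13 and 0.67. Of the 75-base words in Etv5 transcripts, 18.7% also occur in the processed pseudogene Gm4798, so part of its reads cannot be assigned to 1 copy; among the other members at most 1.38% of words are shared with another gene.

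Among the mesenchymal factors, Foxf1 (chr8:121084386-121088144, plus strand) had 0.24, 0.47 and 1.09 CPM in the tumors of mice 6877, 6880 and 6881. It had 152, 157, 186 and 193 CPM in tumor-bearing lungs 6877, 6879, 6880 and 6881, and 245, 189, 295 and 174 CPM in normal lungs 6886, 6887, 6888 and 6893. The 22 counts in tumors gave a log2 fold change of -8.22 (SE 0.36, adjusted p = 2.34e-08) against normal lung and -7.75 (SE 0.37, adjusted p = 4.59e-08) against tumor-bearing lung. Foxf1 was the member with the highest mean level per length in normal lung, as given below.

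Tbx2 and Tbx4 lie near each other on chromosome 11, at chr11:85832551-85841948 and chr11:85886422-85916097, both on the plus strand and 44.5 kb apart. The protein-coding gene Gm11444 lies between them. Tbx2 had 1.20, 2.03 and 1.72 CPM in tumors 6877, 6880 and 6881, the highest tumor level of the 7 factors. It had 134, 366, 322 and 412 CPM in tumor-bearing lungs 6877, 6879, 6880 and 6881, and 271, 124, 264 and 141 CPM in normal lungs 6886, 6887, 6888 and 6893. Its lung values split by preparation batch more than by group, with every batch 1 lung above every batch 2 lung. Its log2 fold change was -6.22 (SE 0.25, adjusted p = 1.4e-08) in tumors against normal lung and -6.52 (SE 0.27, adjusted p = 2e-08) against tumor-bearing lung. Within batch 2 these were -6.31 and -6.27, the first was -6.90 with no batch term, and the second was -7.54 with the repeated libraries summed.

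Tbx4 had 0.12, 0.08 and 0 CPM in tumors 6877, 6880 and 6881, or 2 counts in all. Tumor-bearing lungs 6877, 6879, 6880 and 6881 had 38.1, 44.8, 58.2 and 52.8 CPM, and normal lungs 6886, 6887, 6888 and 6893 had 61.7, 36.1, 65.4 and 31.9 CPM. Summed over libraries, Tbx4 was 836-fold lower in tumors than in normal lung (95% counting interval 231 to 6910) and 850-fold lower than in tumor-bearing lung (235 to 7023). The edgeR adjusted p was 1.87e-08 and 3.54e-08.

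Tbx5 (chr5:119832668-119885219, plus strand), the T-box factor shared with the heart and forelimb, had 0, 0.08 and 0.31 CPM in tumors 6877, 6880 and 6881. It had 28.4, 34.1, 30.4 and 26.8 CPM in tumor-bearing lungs 6877, 6879, 6880 and 6881, and 34.6, 32.3, 40.1 and 29.0 CPM in normal lungs 6886, 6887, 6888 and 6893. Its log2 fold change in tumors was -7.67 (SE 0.41, adjusted p = 6.72e-08) against normal lung and -7.44 (SE 0.42, adjusted p = 1.5e-07) against tumor-bearing lung. The few tumor counts of Gata6, Foxf1 and Tbx5 lay mostly in mouse 6881, and without that tumor their log2 fold changes against normal lung were -5.59, -8.96 and -9.10, and against tumor-bearing lung -5.97, -8.49 and -8.87. All 7 stayed past the threshold without any 1 library.

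Levels of different genes were compared per length, in TPM, which divides counts by transcript length, within each library. In tumors Etv5 averaged 7.47 ± 2.56 TPM and no other factor had a mean above 0.0261 TPM, that of Tbx2 (SD, n = 3). In tumor-bearing lungs the order of means was Etv5 (5.72 ± 3.25 TPM), Foxf1 (4.75 ± 1.498), Tbx2 (4.19 ± 1.80), Nkx2-1 (2.41 ± 0.65), Tbx4 (1.07 ± 0.40), Foxa2 (1.02 ± 0.21), Gata6 (0.88 ± 0.33) and Tbx5 (0.78 ± 0.18; SD, n = 4). In normal lungs it was Foxf1 (9.86 ± 4.43 TPM), Etv5 (9.45 ± 3.12), Tbx2 (4.62 ± 2.76), Nkx2-1 (3.49 ± 1.504), Tbx4 (1.73 ± 0.97), Tbx5 (1.41 ± 0.49), Foxa2 (1.41 ± 0.72) and Gata6 (0.98 ± 0.52; SD, n = 4). Neighbours in these lung orders differed by less than the larger of their SDs, except Nkx2-1 and Tbx4 in both lung groups and Etv5 and Tbx2 in normal lung. These SDs run across libraries, and the order within a library can be steadier. Gata6, for example, was lowest of the 8 in every normal lung library, but ranged from place 6 to 8 in tumor-bearing lungs. Protein-coding genes held 1.76% to 6.98% of the TPM of a library.

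Promoter sequence was set beside these levels, because 7 factors were near 0 in tumors and Etv5 was not. RefSeq start windows on GRCm38.p6, from 250 bases before to 50 after the transcript start, were at hand for 4 members and for Fendrr, a noncoding RNA whose start lies 1.28 kb from that of Foxf1. They are written 5′ to 3′ along the gene, with CpG dinucleotides in capitals: Nkx2-1 at chr12:56536859-56537158 (minus strand), Foxa2 at chr2:148046920-148047219 (minus), Tbx4 at chr11:85896515-85896814 (plus), Etv5 at chr16:22439521-22439820 (minus) and Fendrr at chr8:121083061-121083360 (minus).
Nkx2-1: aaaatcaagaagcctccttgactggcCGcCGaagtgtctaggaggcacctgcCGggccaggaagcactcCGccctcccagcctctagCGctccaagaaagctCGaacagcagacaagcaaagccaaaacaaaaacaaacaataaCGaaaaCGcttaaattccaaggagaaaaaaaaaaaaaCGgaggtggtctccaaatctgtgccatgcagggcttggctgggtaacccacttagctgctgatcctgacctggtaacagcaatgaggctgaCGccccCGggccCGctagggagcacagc
Foxa2: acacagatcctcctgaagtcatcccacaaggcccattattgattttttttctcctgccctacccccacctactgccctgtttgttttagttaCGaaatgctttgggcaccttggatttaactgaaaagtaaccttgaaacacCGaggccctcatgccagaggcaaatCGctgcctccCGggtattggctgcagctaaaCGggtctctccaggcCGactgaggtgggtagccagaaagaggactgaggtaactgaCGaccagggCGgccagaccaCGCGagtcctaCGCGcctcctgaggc
Tbx4: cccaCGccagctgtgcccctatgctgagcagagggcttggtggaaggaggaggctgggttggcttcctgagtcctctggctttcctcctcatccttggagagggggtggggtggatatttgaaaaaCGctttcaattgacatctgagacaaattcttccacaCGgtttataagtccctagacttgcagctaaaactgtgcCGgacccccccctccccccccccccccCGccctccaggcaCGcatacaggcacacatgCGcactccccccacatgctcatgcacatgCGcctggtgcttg
Etv5: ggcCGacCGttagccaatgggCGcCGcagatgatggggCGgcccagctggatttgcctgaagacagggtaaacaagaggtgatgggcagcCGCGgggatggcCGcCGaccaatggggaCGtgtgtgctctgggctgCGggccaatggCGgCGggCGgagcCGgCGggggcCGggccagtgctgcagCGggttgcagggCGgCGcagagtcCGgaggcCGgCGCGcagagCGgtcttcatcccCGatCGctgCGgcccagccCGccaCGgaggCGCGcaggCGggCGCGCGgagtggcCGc
Fendrr: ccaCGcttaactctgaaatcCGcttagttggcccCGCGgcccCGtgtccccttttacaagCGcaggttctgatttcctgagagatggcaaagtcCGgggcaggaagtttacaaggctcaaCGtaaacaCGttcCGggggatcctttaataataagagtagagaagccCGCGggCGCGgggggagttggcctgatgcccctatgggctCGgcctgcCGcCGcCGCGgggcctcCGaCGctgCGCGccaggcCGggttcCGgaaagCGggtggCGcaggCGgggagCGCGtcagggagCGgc

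The Etv5 window held 37 CpG, a number that 5.58% of the 32851 windows in the table reach, and the Fendrr window held 31 (10.6% of windows reach it). Nkx2-1 and Foxa2 held 12 each (39.6% of windows) and Tbx4 held 8 (48.6%), around the median of 7. The Tbx4 window belongs to a transcript that starts inside the gene, at position 85896765. The gene itself begins at 85886422, and no window at that first position was at hand. The windows richest in CpG belonged to Etv5, which was present in tumors, and to Fendrr, which was near 0 there. Foxa2 has 2 more start windows, with 23 and 13 CpG, and Etv5 has 1 more with 19. The forkhead core TGTTTAC, searched on both strands, occurred 1 time in the Etv5 window and 1 time in the Fendrr window and in none of the other 3, and 3.65% of all windows hold it. The CCAAT box occurred 3 times in the Etv5 window and 1 time in that of Foxa2, where 37.4% of all windows hold it, and the T-box half-site AGGTGT (13.7% of windows) was in none of the 5. No match of 1 motif overlapped a match of another. The windows are from the reference strain and not from FVB.

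Fendrr, like Foxf1, was near 0 in tumors. It had 0.36, 0.23 and 0.39 CPM in tumors 6877, 6880 and 6881, against 52.7, 107, 73.1 and 64.2 CPM in tumor-bearing lungs 6877, 6879, 6880 and 6881 and 46.4, 57.8, 48.8 and 49.8 CPM in normal lungs 6886, 6887, 6888 and 6893. The tumors lay far below every lung, with a log2 fold change of -7.18 (SE 0.36, adjusted p = 4.71e-08) against normal lung and -7.68 (SE 0.38, adjusted p = 6.16e-08) against tumor-bearing lung. The noncoding RNA 9030622O22Rik, which begins 2.67 kb beyond the end of Foxa2 on the same strand, had 4 counts in tumors, all in mouse 6877, and averaged 3.17 CPM in tumor-bearing lung and 2.76 CPM in normal lung. Its log2 fold change was -4.47 (SE 0.85, adjusted p = 0.00102) against normal lung, and -8.17 without the tumor of mouse 6877.

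The nearest protein-coding neighbours were taken by position. Of 15 neighbours, 12 passed the filter, and 4 were higher, 5 were lower and 3 did not pass the test in tumors against normal lung, where 24.5% of all genes were higher and 24.7% lower; those with values here were picked after the values were seen. Foxf1 lies 3.48 kb from Mthfsd, which averaged 33.8 CPM in tumors and 15.4 CPM in normal lung (log2 fold change 1.03, adjusted p = 0.00527), and on its other side Irf8 did not pass the test (-0.32, adjusted p = 0.314). Around the Tbx2 and Tbx4 pair, Bcas3 averaged 10.2 CPM in tumors and 34.9 CPM in normal lung (-1.69, adjusted p = 0.00273), while Brip1, the DNA repair helicase beyond Tbx4, averaged 13.7 CPM in tumors and 3.44 CPM in normal lung (1.88, adjusted p = 0.00271). Beside Etv5 the neighbours went opposite ways. Dgkg, at 28.7 kb, averaged 0.62 CPM in tumors and 3.62 CPM in normal lung (-2.80, adjusted p = 5.66e-05). Tra2b, at 115 kb on the other side, averaged 71.4 CPM in tumors and 36.8 CPM in normal lung (1.01, adjusted p = 0.000291). Tbx5 has its relative Tbx3 as a neighbour at 148 kb, and both fell.

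Paralogs showed which families had another member expressed in the tumors. Of 19 paralogs listed, 11 passed the filter in the tumor fit, and against normal lung 4 were higher, 5 were lower and 2 did not pass the test (median 0.00), beside 24.5% of all genes higher and 24.7% lower. Foxa1, the close relative of Foxa2, had 16.0, 31.0 and 16.2 CPM in tumors 6877, 6880 and 6881, against 16.9 to 24.8 CPM in normal lungs, with a log2 fold change of 0.00 (SE 0.30, adjusted p = 0.993). Foxa1 was thus counted in all 3 tumors, which held no count of Foxa2. Gata3, a factor of mammary luminal cells, averaged 129 ± 23.0 CPM in tumors (n = 3) and 24.9 ± 8.24 CPM in normal lung (SD, n = 4; log2 fold change 2.30, SE 0.31, adjusted p = 9.09e-05), the reverse of Gata6. Gata2 (-4.22, adjusted p = 3.58e-07) and Gata5 (-4.93, adjusted p = 2.4e-06) fell with Gata6, and Gata4 had at most 1.09 CPM in every tested library and did not pass.

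Foxf2, the relative of Foxf1, had 2 counts in the 3 tumors, 454-fold lower than in normal lung (95% counting interval 125 to 3750; adjusted p = 2.45e-08). The T-box relatives fell as well for Tbx3 (-5.64, SE 0.43, adjusted p = 1e-06) and Tbx1 (-3.94, SE 0.66, adjusted p = 0.000435). Tbx18 was called higher (3.77, SE 0.96, adjusted p = 0.00644), but its tumor values were 0.48, 7.18 and 1.25 CPM, so the tumor of mouse 6880 set most of that mean. Against tumor-bearing lung 3 paralogs were higher, 5 were lower and 3, Tbx18 among them, did not pass. None of the 5 relatives of Nkx2-1 on the list passed the filter, and Nkx2-9, 74.5 kb from Nkx2-1, had 0 counts in tumors and averaged 0.78 CPM in tumor-bearing lung and 0.49 CPM in normal lung.

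**Figure D2:**
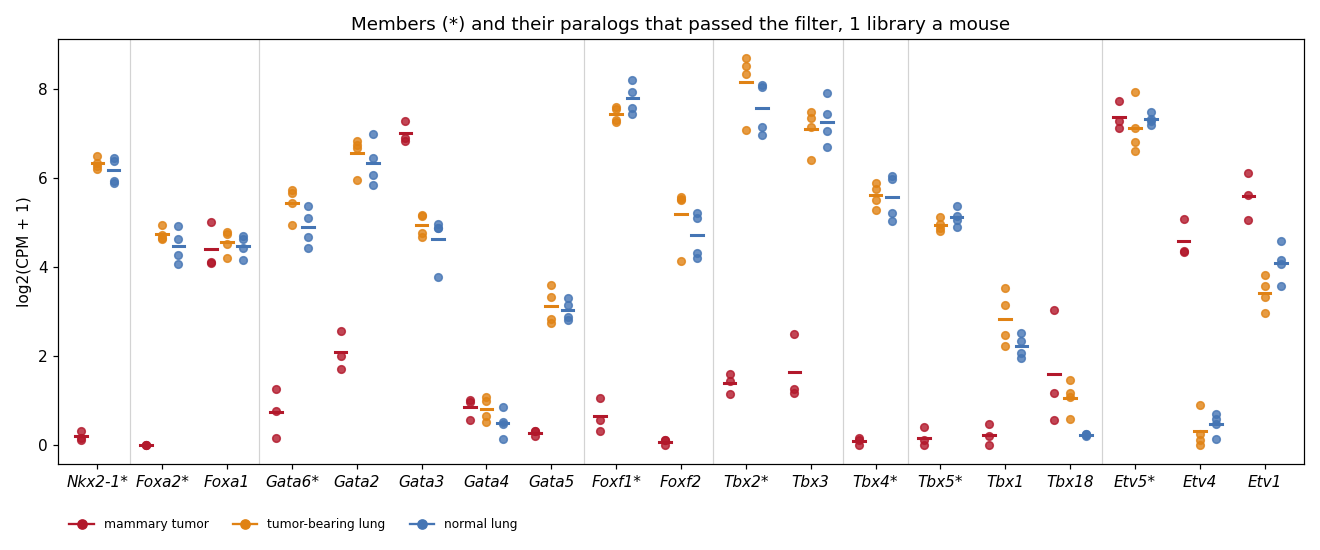
Level as log2(CPM + 1) of the 8 factors (marked *) and of the 11 paralogs that passed the filter, 1 point a mouse and a bar at each mean, with tumors in red, tumor-bearing lungs in orange and normal lungs in blue. Foxa1, Gata3, Etv4 and Etv1 are present in tumors, while Foxa2, Gata6, Foxf1, Foxf2, Tbx2, Tbx3, Tbx4 and Tbx5 are near the bottom there.

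Etv5 shared its presence in tumors with both of its relatives. Etv4 had 19.3, 32.9 and 19.4 CPM in tumors 6877, 6880 and 6881 and at most 0.87 CPM in any tumor-bearing lung and 0.62 CPM in any normal lung (log2 fold change against normal lung 6.53, SE 0.77, adjusted p = 2.77e-05). Etv1 averaged 49.6 ± 17.9 CPM in tumors (n = 3) and 16.6 ± 4.87 CPM in normal lung (SD, n = 4; 1.68, SE 0.35, adjusted p = 0.00184). Beside an Etv5 level that did not pass the test, the other 2 genes of this ETS subfamily were thus higher in tumors.

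The FGF genes of the target list, named here after their values were seen, went both ways. Fgfr2, the receptor through which FGF10 reaches lung epithelium, had 1.68, 1.48 and 4.29 CPM in tumors 6877, 6880 and 6881 and 89.8 to 152 CPM in normal lungs (log2 fold change -5.36, SE 0.35, adjusted p = 3.27e-07). Fgf10, its ligand, was lower too (-3.23, SE 0.31, adjusted p = 5.95e-06). Of the feedback genes that FGF signaling induces, Dusp6 averaged 148 CPM in tumors and 64.2 CPM in normal lung (1.44, SE 0.21, adjusted p = 0.000137). Spry2 (0.82, SE 0.23, adjusted p = 0.0118) and Spry4 (0.67, SE 0.20, adjusted p = 0.0143) were also higher in tumors against normal lung, and Spry1 did not pass (-0.42, adjusted p = 0.180). Against tumor-bearing lung Dusp6 and Spry2 were again higher, Spry1 was lower and Spry4 did not pass.

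**Figure D3:**
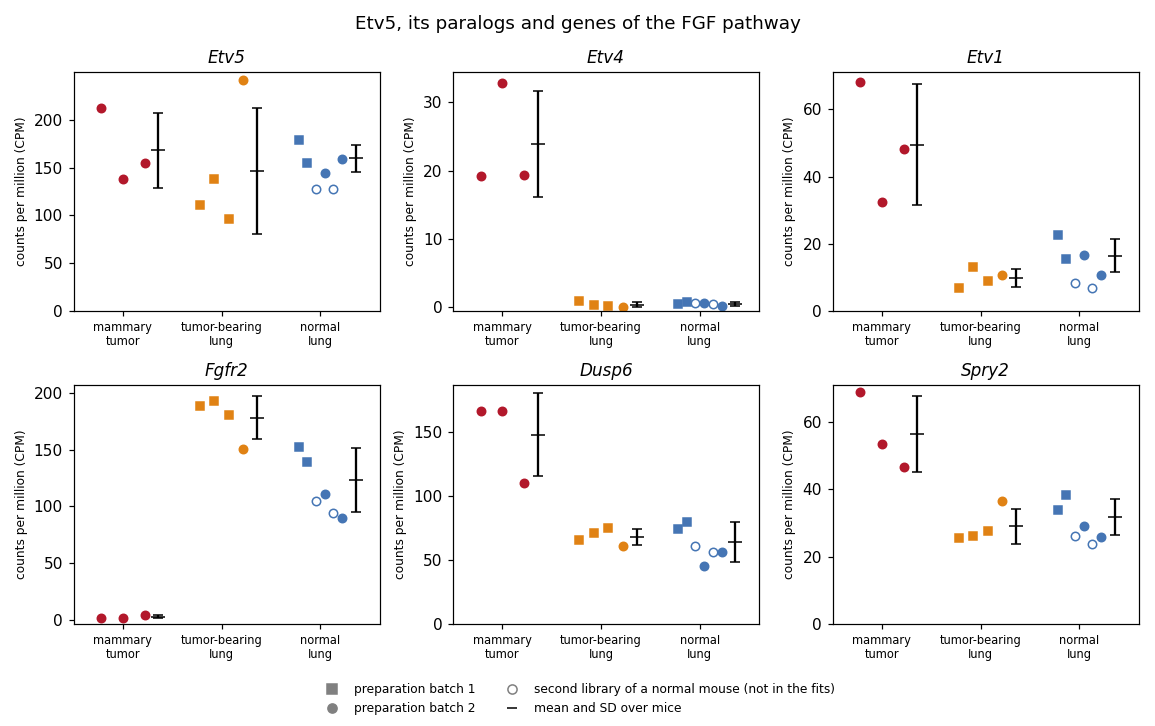
CPM of Etv5, its paralogs Etv4 and Etv1, and the FGF pathway genes Fgfr2, Dusp6 and Spry2 by tissue, with symbols as in the plot of factors by library. Etv4, Etv1, Dusp6 and Spry2 have all 3 tumors above every lung of the tests, Fgfr2 has all 3 below, at 1.48 to 4.29 CPM, and Etv5 overlaps.

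Genes known to lie downstream of the factors, or in the same pathways, fell in most cases. Of 31 listed, 21 were lower, 7 were higher and 3 did not pass in tumors against normal lung (median -3.68). Of all genes, 24.7% were lower and 24.5% higher there. Against tumor-bearing lung 21 were lower, 6 were higher and 4 did not pass (median -3.83), beside 23.7% and 22.6% of all genes. The smallest p-values among the lower ones belonged to Lamp3, of the alveolar type 2 lamellar body, Bmp4, a growth factor of lung bud tips, and Cldn18, a tight junction gene that Nkx2-1 drives in lung. Their log2 fold changes were -10.48 for Lamp3 (SE 0.26, adjusted p = 1.54e-09), -10.20 for Cldn18 (SE 0.38, adjusted p = 9.27e-09) and -6.32 for Bmp4 (SE 0.22, adjusted p = 7.46e-09). Hhip, a Hedgehog antagonist, had 0 counts in tumors and was at least 181.5-fold lower than in normal lung. Higher in tumors were Wnt7b, a Wnt ligand of lung epithelium (4.03, SE 0.30, adjusted p = 8.18e-07), Dusp6, Itgb3 (1.19, SE 0.23, adjusted p = 0.000993) and Aqp5, a water channel of lung and gland epithelium (1.181, SE 0.26, adjusted p = 0.00296). Against tumor-bearing lung Aqp5 was higher as well (1.41, SE 0.29, adjusted p = 0.00179).

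Other regulators of lung epithelium included genes higher and genes lower in tumors. Of 29 listed, 28 were tested, and 9 were higher and 12 lower in tumors against normal lung (median -0.46), beside 24.5% and 24.7% of all genes. Against tumor-bearing lung 9 were higher and 13 lower (median -0.50), beside 22.6% and 23.7% of all genes. Sox9, a factor of distal lung tips that many carcinomas also make, averaged 84.2 CPM in tumors and 1.13 CPM in normal lung (log2 fold change 6.68, SE 0.35, adjusted p = 5.51e-08). Irx2 (2.35, SE 0.27, adjusted p = 2.16e-05) and Etv4 were higher with it, as was Trp63, a factor of basal cells (5.37, SE 0.64, adjusted p = 3.05e-05 against normal lung and 4.38, SE 0.71, adjusted p = 0.00038 against tumor-bearing lung). Hopx, a factor of alveolar type 1 cells (-7.43, SE 0.43, adjusted p = 1.45e-07), Tfcp2l1 (-4.51, SE 0.27, adjusted p = 1.82e-07) and Nr2f2 (-2.42, SE 0.20, adjusted p = 1.54e-06) were lower.

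Most regulators of lung mesenchyme and vessels were lower in tumors. Of 28 listed, 26 were tested, and 17 were lower and 4 higher in tumors against normal lung (median -3.02). Of all genes, 24.7% were lower and 24.5% higher there. Against tumor-bearing lung 16 were lower and 4 higher (median -2.95), beside 23.7% and 22.6% of all genes. Tcf21, a factor of lung fibroblasts, had 1 count in the 3 tumors and was 1744-fold lower than in normal lung (95% counting interval 313 to 68900; adjusted p = 9.85e-09). Erg, an endothelial factor, was lower (-4.19, SE 0.19, adjusted p = 2.63e-08). The 4 that were higher included Twist1 (8.69, SE 0.83, adjusted p = 5.66e-06), a factor of mesenchymal identity that averaged 18.2 CPM in tumors and 0.10 CPM in normal lung, and Foxm1, a factor of dividing cells (2.73, SE 0.33, adjusted p = 3.28e-05). Gata3, given above as a paralog and mammary marker, was among the 4 as well (2.30, SE 0.31, edgeR adjusted p = 9.09e-05). Some genes stand on more than 1 list, so the counts of the lists are not independent. Cell type markers moved with these lists: lung fibroblast markers, 5 genes, summed to 129 to 179 CPM in tumors, 1242 to 1830 CPM in tumor-bearing lungs and 1367 to 2088 CPM in normal lungs. Endothelial markers, 7 genes, summed to 68.1 to 90.9 CPM in tumors, 1373 to 2457 CPM in tumor-bearing lungs and 1347 to 2928 CPM in normal lungs. The part of cell makeup in the falls of the factors was not tested.

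Genes with the profile most like each factor over the 11 tested libraries were found by the root mean square difference of centred log2 CPM, a description over tissues that differ by origin. With the 8 factors themselves left out of the 13604 protein-coding genes compared, the nearest to Nkx2-1 was Tcf21, with a difference of 0.13, followed by Scnn1g at 0.29. Tcf21 was likewise nearest to Tbx4, at 0.28, and Foxf2 was nearest to Tbx2, at 0.11. Log2 CPM here carry a prior count of 2, which raises tumor values near 0. Such likeness therefore depends on the lung level as well as on the fall. The fitted log2 fold changes against normal lung were -7.94 for Foxf2 and -6.22 for Tbx2. Nkx2-1 and Tbx4 lay 0.25 from each other. Foxf1 lay nearest to Tmem100 (0.29) and Rtkn2 (0.36), Foxa2 to Bend7 (0.26) and Slc4a5 (0.29), Gata6 to Col4a6 (0.31) and BC067074 (0.32), and Tbx5 to Cyp4b1 (0.24) and Cldn5 (0.25). Etv5 lay nearest to Cbr1 (0.18) and Ticam1 (0.19).

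In the lungs themselves, none of the 8 factors passed the test between tumor-bearing and normal mice. The count was 0 of 8, where edgeR called 0.0359% of the 16727 genes tested (6 genes). With both batches pooled, the 4 tumor-bearing lungs overlapped the 4 normal lungs for every factor. Within batch 1 only Nkx2-1 and Foxa2 overlapped. There the 3 tumor-bearing lungs had 157 to 193 CPM of Foxf1, against 245 to 295 CPM in 2 normal lungs. Gata6 had 42.0 to 52.0 CPM against 33.2 to 40.6 CPM. How many of all genes lay apart in so few lungs was not counted, so these splits are not a result about the factors. At an unadjusted p below 0.05 there were 2 of 8, Foxf1 and Gata6, where 14.0% of all genes reached that level. DESeq2 called 1 of 8, Foxf1, where it called 3.83% of genes. The median log2 fold change of the 8 was -0.01 and that of all genes 0.01, with 4 factors positive and 4 negative by counts; on the TPM scale the median of all genes moved by -0.38 and Nkx2-1, Foxa2, Gata6 and Tbx2 became negative too.

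Foxf1 averaged 172 ± 20.6 CPM in tumor-bearing lungs and 225 ± 55.3 CPM in normal lungs (SD, n = 4 each), and its log2 fold change was -0.46 (SE 0.13, unadjusted p = 0.00596 and adjusted p = 0.210 by edgeR). The sign was the same in both batches, -0.57 in batch 1 and -0.32 in batch 2, and under DESeq2 the adjusted p was 0.045. Its neighbour Fendrr pointed the other way, with 74.2 ± 23.4 CPM in tumor-bearing lungs and 50.7 ± 4.92 CPM in normal lungs (SD, n = 4 each; log2 fold change 0.50, SE 0.23, adjusted p = 0.362), but its sign differed by batch, 0.80 in batch 1 and -0.14 in batch 2, and it was -0.16 on the log2(TPM + 1) scale. Protein-coding genes held 49.0% to 59.0% of the counts in the batch 1 tumor-bearing lungs, against 68.2% and 69.5% in the batch 1 normal lungs. With library scaling set from protein-coding genes, Foxf1, a coding gene, was -0.45 and Fendrr, a noncoding one, was 0.52. Such scaling applies 1 factor to all genes of a library, so it could not change the gap between these 2 genes. The part of the coding share in their opposite signs was not tested. Gata6 averaged 43.3 ± 10.1 CPM in tumor-bearing lungs and 29.7 ± 8.96 CPM in normal lungs (SD, n = 4 each; 0.39, SE 0.14, unadjusted p = 0.0186, adjusted p = 0.282), with 0.40 in batch 1 and 0.37 in batch 2, but -0.17 on the log2(TPM + 1) scale. Gata6 and Tbx5 are also heart genes, and the tumor-bearing lung of mouse 6879 held heart markers. In an edgeR fit without that lung, Gata6 was 0.43 (adjusted p = 0.319) and Tbx5 -0.28 (adjusted p = 0.471). Neither gene passed with or without it, and the part of heart content in their levels was not tested.

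**Figure D4:**
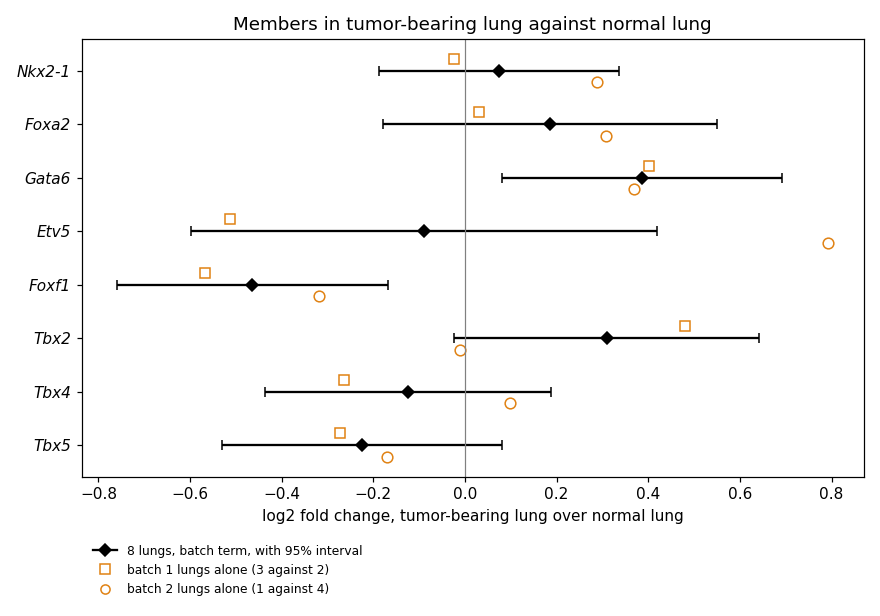
Log2 fold change of each factor in tumor-bearing over normal lung, with the 95% interval of the fit of 8 lungs with a batch term in black and the values within batch 1 (squares) and batch 2 (circles) in orange. Intervals of Gata6 and Foxf1 leave 0 on one side without passing the adjusted threshold, and the Etv5 values of the 2 batches lie on opposite sides of 0; on the TPM scale Gata6 turned negative.

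Etv5 had lung differences of opposite sign in the 2 batches. It was -0.51 in batch 1 (3 tumor-bearing against 2 normal lungs) and 0.79 in batch 2, where the single tumor-bearing lung of mouse 6877 had 242 CPM and the 4 normal lungs 128 to 159 CPM. The 8 lungs together gave -0.09 (SE 0.23, 95% interval -0.60 to 0.42, adjusted p = 0.890), and without mouse 6877 the value was -0.52 (adjusted p = 0.158). With 1 tumor-bearing lung in batch 2, that mouse and that batch cannot be told apart.

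The other 5 factors had intervals that spanned 0. Tbx2 was 0.31 (SE 0.15, 95% interval -0.02 to 0.64, adjusted p = 0.391), with 0.48 in batch 1 and -0.01 in batch 2. Foxa2 was 0.19 (SE 0.16, adjusted p = 0.639), Nkx2-1 0.07 (SE 0.12, adjusted p = 0.805), Tbx4 -0.12 (SE 0.14, adjusted p = 0.720) and Tbx5 -0.22 (SE 0.14, adjusted p = 0.482). For Nkx2-1, whose interval ran from -0.19 to 0.34, the 8 lungs leave room for a change of about that size in either direction.

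No gene of the 4 longer lists passed between the lung groups either. Of the 31 downstream and pathway genes, 19 were negative and 12 positive (median -0.12). At an unadjusted p below 0.05 there were 8 of the 31, where 14.0% of all genes reached that level. The genes with the smallest p were Fgfr2 (0.45, SE 0.12, adjusted p = 0.199) and Fzd2 (0.53, SE 0.17, adjusted p = 0.244). Among 26 other epithelial regulators (median 0.04) they were Irx2 (0.87, SE 0.19, adjusted p = 0.180) and Foxp4 (0.49, SE 0.20, adjusted p = 0.322), and among 25 mesenchymal and vascular regulators (median -0.07) Klf2 (0.66, SE 0.22, adjusted p = 0.260) and Tbx3 (-0.40, SE 0.16, adjusted p = 0.312). Among 8 paralogs (median 0.07) they were Etv1 (-0.76, SE 0.26, adjusted p = 0.278) and Tbx3.

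Normal mice 6886 and 6888, each prepared in both batches, showed how far the level of a factor moved between libraries of 1 mouse. In mouse 6888 all 8 factors were lower in batch 2, and in mouse 6886 7 were lower and Tbx5 was not. The libraries of mouse 6886 also differed in heart muscle markers, which summed to 32.45 CPM in batch 1 and 571 CPM in batch 2. For mouse 6888 they summed to 34.3 and 41.8 CPM. Tbx2 moved most, with 150 CPM in batch 2 and 271 CPM in batch 1 for mouse 6886 and 128 and 264 CPM for mouse 6888, ratios of 1.80 and 2.06 for batch 1 over batch 2. Tbx4 had ratios of 1.68 and 1.71 and Gata6 1.47 and 1.73. Fendrr moved the other way, with 0.76 in both mice. Protein-coding genes held 54.7% of the counts in batch 2 and 68.2% in batch 1 for mouse 6886, and 49.6% and 69.5% for mouse 6888. The part of this share, of heart content, and of RNA quality and fragmentation, in the shifts was not tested. For Nkx2-1, Foxa2, Gata6, Etv5, Tbx2 and Tbx4 these shifts were larger in both mice than the difference between tumor-bearing and normal lung. That difference was 1.31-fold for Gata6. For Foxf1 and Tbx5 the shift was larger than the lung difference in mouse 6888 and smaller in mouse 6886.

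**Figure D5:**
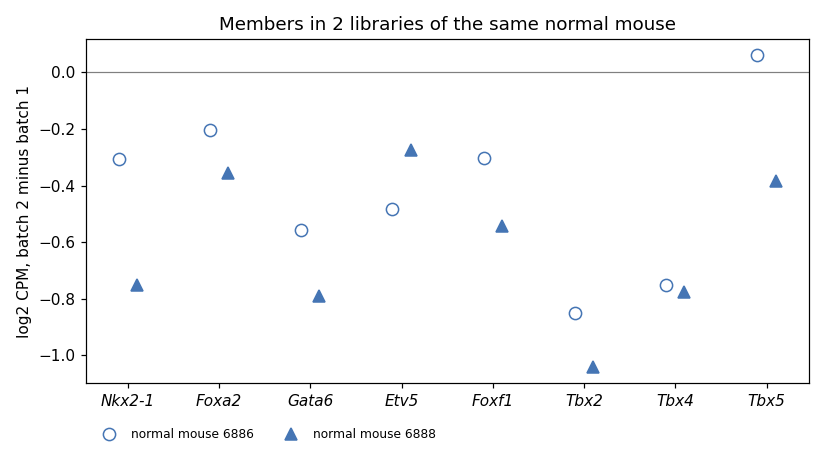
Log2 CPM of each factor in the batch 2 library minus the batch 1 library of the same normal mouse, open circles for mouse 6886 and triangles for mouse 6888. All points but that of Tbx5 in mouse 6886 lie below 0, and Tbx2 lies lowest, at -0.85 and -1.04.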

How the data were processed

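Total RNA from 20 mg of snap-frozen tissue yielded 100 ng per library, depleted of ribosomal RNA and sequenced as single reads of 75 bp, per the labels. How long RNA was fragmented depended on its quality; values for single libraries were not used here. Salmon (no version), the build mm10 and DESeq2 1.18.1 are credited in the submitters' processing notes. The authors deposited estimated counts (expected counts) and TPM for 13 libraries. The count to TPM ratio was constant up to 1 factor per library (largest log2 deviation 1.13e-12 over 17718 genes), which makes the deposited counts a rescaling of TPM by average length. Tables held 46679 gene IDs, 46201 named from GENCODE M21 (GRCm38), and 0 columns of no sample.

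Counts were rounded and tested with edgeR 4.0.16 (quasi-likelihood, TMM, filterByExpr) with tissue and batch as terms, over 8 lungs for the lung comparison and 11 libraries for the tumor comparisons. Adjusted p-values are Benjamini-Hochberg over all genes tested, with a threshold of 0.05. The scripts were tested on simulated data. CPM use TMM library sizes over 13 libraries, and log2 CPM a prior count of 2. Alternatives used DESeq2 1.42.0 and limma 3.58.1. The second libraries of mice 6886 and 6888 entered only alternatives and the comparison of batches. Library totals of 8321037 to 13982903 set the precision. Bounds use 3 counts over a group, and counting intervals are exact 95%; they cover counting error only, as PCR copies carried no molecular identifiers. Members and lists were chosen with earlier results of these data known. All 8 members are named. Of each other list up to 3 genes with the smallest p in each direction are named, or the 2 with the smallest unadjusted p where none passed. All measured paralogs and neighbouring noncoding RNAs may be named too. Hhip and some FGF genes of the target list were named outside this rule. Promoter windows are from RefSeq, GRCm38.p6. Mice 6877, 6880 and 6881 gave both tumor and lung, which pairs those samples; the correlations of their deviations from group means across 18297 genes were 0.12, 0.12 and -0.19.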

Additional observations from a re-analysis of the deposited data

Results flagged for a closer look

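Heart muscle genes stood apart in the tumor-bearing lung of mouse 6879, in a group of 4. That lung had 679 CPM of Myh6, against 8.19 to 10.7 CPM in the other tumor-bearing lungs. It had 56.1 CPM of Tnnt2, against 0.77 to 1.38 CPM, 27.7 CPM of Myl7, against 0 to 0.80 CPM, and 40.8 CPM of Ryr2, against 4.12 to 6.28 CPM. In each case the gap to the nearest other lung was above Dixon's critical value of 0.829 of the group's range. Such a test marks about 1 in 20 groups by chance, and 32 groups were examined. The 32 groups covered these heart markers, the 8 lung factors and the 2 noncoding RNAs in both lung groups, and no lung factor was marked.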

How the results depend on the processing

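Of the log2 fold changes of the 8 factors, most kept direction and call; exceptions follow. In tumor-bearing against normal lung, 0 of 8 factors passed under edgeR and limma and 1 under DESeq2, where Foxf1 was -0.49. The count over all genes there, 6, became 275 with no filter on low counts, 445 with DESeq2, 90 and 65 with limma on log2(TPM + 1) and log2(TPM + 0.1), 1 with no batch term, 1 with repeated mice taken from batch 2, 2 with repeats summed, 39 within batch 1, and 0 to 221 with 1 library left out. It was 0 when normal lung 6886 or any batch 1 tumor-bearing lung (6879, 6880, 6881) was left out, 16 when normal lung 6887 was and 221 when tumor-bearing lung 6877 was.

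TPM moved the median of all genes by -0.38 (pseudocount 1) and -0.63 (0.1) in that comparison, and signs turned with it: Nkx2-1 to -0.48 and -0.61, Foxa2 to -0.31 and -0.48, Gata6 to -0.17 and -0.29, and Tbx2 to -0.33 and -0.39. Nkx2-1 was -0.023 within batch 1 and -0.033 to 0.13 with 1 library left out, lowest when tumor-bearing lung 6877 was. Tbx2 was -0.0058 with repeated mice taken from batch 2 and -0.011 within batch 2. Tbx4 became 0.10 and 0.10 under those settings and 0.21 with repeats summed. Etv5 became 0.80 and 0.79 under them, and ranged from -0.52 to 0.083 with 1 library left out, above 0 when normal lung 6886 or tumor-bearing lung 6881 (0.04) was left out.

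In tumor against normal lung 7 of 8 factors passed under every alternative, and only Etv5 changed sign: 0.066 with no batch term, 0.29 with repeated mice taken from batch 2, 0.15 with repeats summed, 0.28 within batch 2, and -0.40 to 0.13 with 1 library left out. Against tumor-bearing lung 7 of 8 passed, except 6 with limma on log2(TPM + 1), where Tbx4 was -0.59 and the count over all genes was 5322, not 8471. TPM moved the median of all genes by 0.32 and 0.41 there, and Etv5 became 0.35 and 0.40. Etv5 was 0.19 with no batch term, 0.18 with repeats summed, and -0.26 to 0.67 with 1 library left out. With the mouse as a replicate block over 13 libraries, 7 of 8 factors and 8607 genes passed, and Etv5 was 0.26; the block changed no other call of a factor. The cause of these shifts was not tested. Leaving out 1 library gave 7517 to 9100 genes in tumor against normal lung and 6444 to 8375 in tumor against tumor-bearing lung, with 7 factors each time. The lung comparison rests on 4 mice a group, with 1 tumor-bearing lung in batch 2.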
